A study of Rattus norvegicus with 6 samples.

Results

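Gene expression was measured on Illumina rat beadchips in cultured primary astrocytes, and the developmental transcription factor families are described here across all 6 arrays. The members are the probes whose platform gene symbol belongs to the Hox, Dlx, Lhx, Emx, Otx, Nkx, Pax, Irx, Meis, Zic or Sox families, to the Six-family homeobox genes, to the POU-domain genes (Pou, a number and f) or to the forkhead genes (Fox, a letter and a number). Sox10 and Foxj1 were left out. The rule found 113 of the 22523 probes on the array, for 110 genes. Of these probes, 50, each of a different gene, were above background (detection p under 0.05) on at least 1 array and could be tested.

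The M337V group, 3 arrays, came from rats that carry 2 transgenes, GFAP-tTA and TRE-TDP43 with the M337V substitution. The tTA group, 3 arrays, came from rats that carry GFAP-tTA alone, so both groups make the tTA activator. tTA is driven by the promoter of Gfap, an intermediate filament gene of astrocytes, and switches on the TRE-controlled mutant TDP-43 once doxycycline (Dox) is withdrawn. TDP-43 is an RNA-binding protein linked to amyotrophic lateral sclerosis. Each genotype has 1 array at 3, 4 and 6 days after withdrawal. The labels do not give the part of the nervous system the cells came from or the age of the rats. Nor do they say whether the arrays of a genotype were separate cultures. The p-values and standard errors (SE) therefore rest only on how the genotype difference varied between the 3 days. Each probe's variance was also drawn toward that of all tested probes. If each genotype was 1 culture, genotype and culture cannot be told apart.

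Homeobox, paired-box, POU, forkhead, ZIC and SOX proteins bind DNA and, in the embryo, divide the neural tube into territories. Otx, Emx, Six3 and Dlx genes mark parts of the forebrain, Pax and Irx genes mark bands along the tube and from back to belly, Nkx6 genes mark ventral progenitors, and Hox genes mark the hindbrain and spinal cord in an order that follows their chromosomal position. SOX and POU factors keep neural progenitors and glia in their lineage. Astrocytes taken from different regions are known to keep part of this code in culture.

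The cells carried the marks of astrocytes: all 12 astrocyte genes tested were detected in both genotypes, and Gfap was above background on all 6 arrays. Mean signals were 377 to 554 per array and 43.8% to 48.3% of probes were detected; the M337V array of day 3 had the lowest value of both. Markers of other cell types differed between the genotypes. Summed normalized signal of the microglia and macrophage list was 9671 to 29357 on M337V arrays, against 444 to 777 on tTA arrays, and 12 of its 16 tested genes were higher and 0 lower in M337V. In the tTA arrays 8 of those 16 were not detected at all, among them C1qa, C1qc, Ptprc and Tyrobp. Oligodendrocyte lineage genes summed to 7586 to 16200 in M337V and 3531 to 4124 in tTA (6 of 11 higher, 0 lower). Ependymal and cilium genes summed to 2470 to 4098 in M337V and 1054 to 2055 in tTA (5 of 7 higher), and neuron genes to 5649 to 6516 in M337V and 2447 to 3025 in tTA (6 of 11 higher). Fibroblast and meningeal genes summed to 17759 to 30673 on M337V arrays and 40016 to 56764 on tTA arrays (2 higher and 5 lower of 9). Pericyte and smooth muscle genes summed to 6478 to 9141 in M337V and 9666 to 12384 in tTA (2 of 7 lower). Endothelial genes were higher for 2 of 4, while Cldn5 of that list lay lower without a call (-0.45). Schwann cell genes were called for 0 of 5, and 3 had an unadjusted p under 0.05. Of those 3, Pmp22 (-0.34) and Cdh19 (-0.46) lay lower and Ngfr (0.49) higher in M337V. The astrocyte list had 3 higher and 2 lower of 12. Outside the microglia and macrophage list, some markers were above background on all 3 M337V arrays and no tTA array. They were Snap25 and Ina (neuron), Lum and Ptgds (fibroblast and meningeal), Esam (endothelial) and Ngfr (Schwann cell). Among them Ptgds and Ngfr were not called (adjusted p = 0.124 and 0.115 by limma). Olig2, Mog and Mag were above background on 1 M337V array each and no tTA array. Their log2 differences were small (0.07, 0.06 and 0.12) and none of them counts as higher. Mia, of the ependymal list, lay the other way, above background on all 3 tTA arrays and no M337V array. The part of these cell types in the differences given below was not tested. In bulk RNA, more or fewer cells of a type and more or less RNA per cell cannot be told apart.

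**Figure D1:**
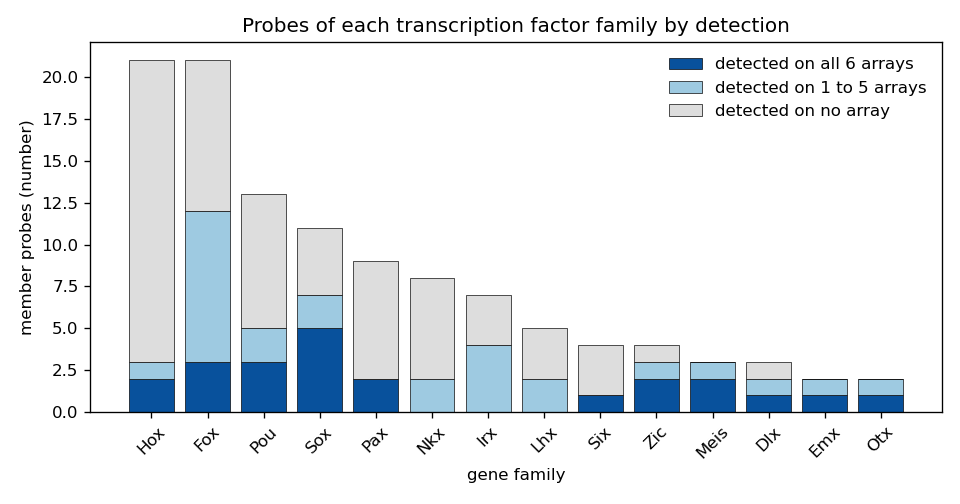
Number of member probes in each family (vertical axis) that were detected on all 6 arrays, on 1 to 5 arrays or on no array. Of 21 Hox probes 18 were detected nowhere, whereas 5 of 11 Sox probes and 3 of 13 POU probes were detected on all 6 arrays.

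Which factors were above background differed by family. Over the whole array, 13086 of 22523 probes were detected on at least 1 array and 8441 on all 6. Of the 113 member probes, 50 were detected on at least 1 array. That is 23 detected on all 6 arrays, 16 on 2 to 5 arrays and 11 on a single array, with 63 on none. Those present throughout were the forebrain factors Emx2, Otx2, Six3, Pax6 and Dlx1, the POU genes Pou3f2, Pou3f3 and Pou3f4, the SOX genes Sox2, Sox4, Sox6, Sox8 and Sox11, the TALE homeobox genes Meis2 and Meis3, and Zic2, Zic5, Foxk2, Foxm1, Foxp1, Pax4, Hoxa11 and Hoxb1. Those detected on 2 to 5 arrays were Dlx5, Emx1, Foxj2, Foxj3, Foxo3, Foxp4, Foxs1, Hoxc9, Irx3, Irx5, Irx6, Lhx4, Meis1, Nkx6-2, Pou2f1 and Sox14. Single detections were of Foxi3, Foxn3, Foxn4, Irx1 and Otx1 on an M337V array and of Foxo4, Lhx1, Nkx6-1, Pou2f2, Sox17 and Zic4 on a tTA array. A probe with no transcript can reach a detection p under 0.05, so a single detection does not show that the factor was made. In M337V 29, 41 and 33 members were detected on days 3, 4 and 6, and in tTA 33, 35 and 38.

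Probes below background on all 6 arrays included those of most spinal cord and hindbrain Hox genes: Hoxa2, Hoxa7 and Hoxa13, Hoxb2, Hoxb3, Hoxb4, Hoxb5, Hoxb7, Hoxb8, Hoxb9 and Hoxb13, Hoxc6 and Hoxc12, and Hoxd1, Hoxd3, Hoxd4, Hoxd10 and Hoxd13. The ventral forebrain gene Nkx2-1, the interneuron gene Lhx6 and Lhx5 and Lhx9 were not detected. Nor were the dorsal and midbrain to hindbrain genes Pax2, Pax3, Pax5, Pax7 and Pax8, the floor plate gene Foxa2, Zic1, the eye gene Six6, the mesodermal genes Six2, Pax1 and Pax9, the vascular genes Sox7 and Sox18, or Foxp3 of regulatory T cells. The other undetected members were Dlx3, Foxa1, Foxa3, Foxe1, Foxe3, Foxi1, Foxn1, Irx4, Nkx1-1, Nkx2-3, Nkx2-5, Nkx2-6, Nkx2-8, Pou1f1, Pou2f3, Pou3f1, Pou4f2, Pou4f3, Pou5f1, Pou5f2, Pou6f1, Six4, Sox13 and Sox15. Both Foxa2 probes were below background everywhere, and of 3 Irx1 probes only 1 was detected, on a single array. A probe below background gives only a bound on its transcript, and whether each probe is specific to its gene was not checked.

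**Figure D2:**
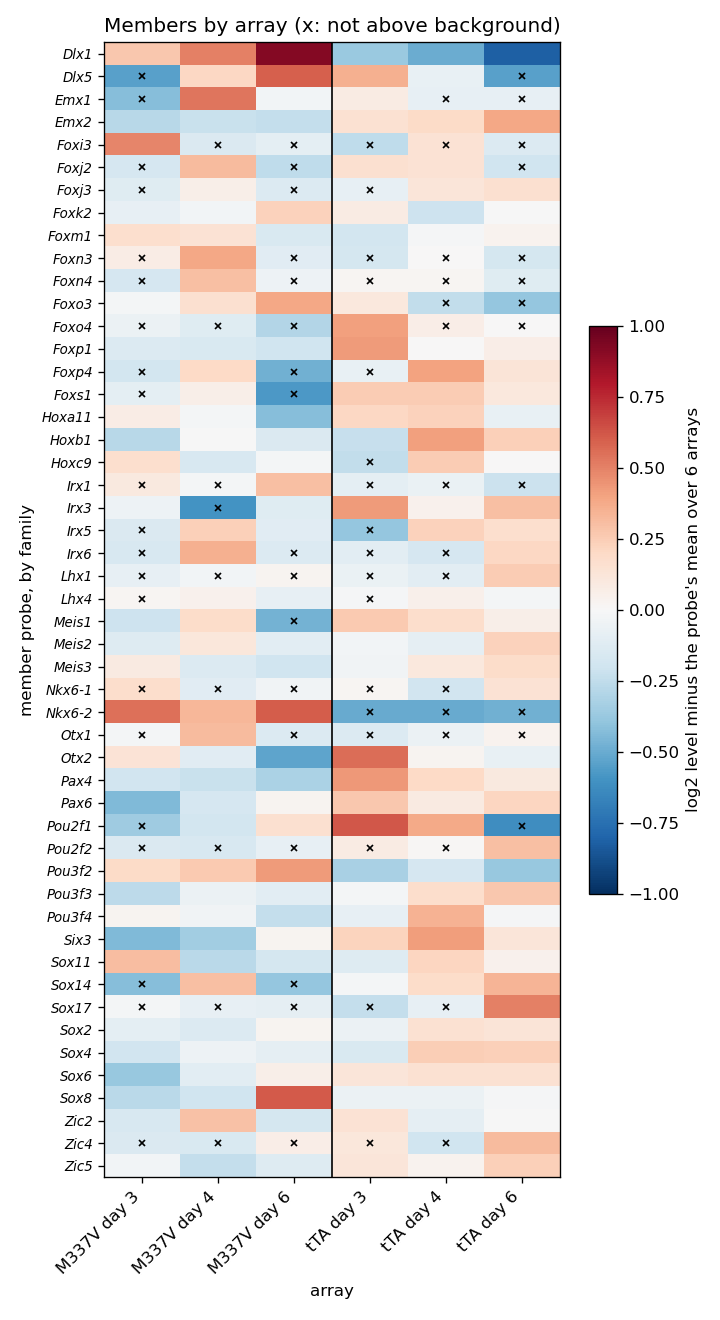
The 50 tested members (rows, by family) on each array (columns), as log2 normalized signal minus the probe's own mean over the 6 arrays; an x marks values not above background. Nkx6-2 has an x on all 3 tTA arrays and on 0 of the M337V arrays, and Dlx1 is red in M337V and blue in tTA.

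The study asks how astrocytes with the induced mutant differ from tTA astrocytes of the same day. The genotype difference was fitted with limma over all 13086 detected probes, with the day as a block, and a call is an adjusted p (Benjamini-Hochberg over all those probes) under 0.05. Of the 50 members tested 3 rose in M337V (Dlx1, Nkx6-2 and Pou3f2) and 3 fell (Emx2, Irx3 and Pax4), which is 12% of them. Over all probes tested 11.5% were called, 6.36% higher and 5.17% lower, so the members were called about as often as any detected probe. The 3 rises were called under each of the 6 other scalings and background settings run. The 3 falls were not: median scaling called 0 lower, cyclic loess called 1 (Emx2), and an offset of 50 called Emx2 and Pax6. The upper quartile scaling, the deposited values and the setting without background correction called Emx2 with Pax6 and Pou3f3. Irx3 and Pax4 were called lower in none of those 6 settings. Leaving out 1 day at a time gave 2, 1 and 2 rises and 0, 0 and 0 falls without days 3, 4 and 6, and only Nkx6-2 was called each time.

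**Figure D3:**
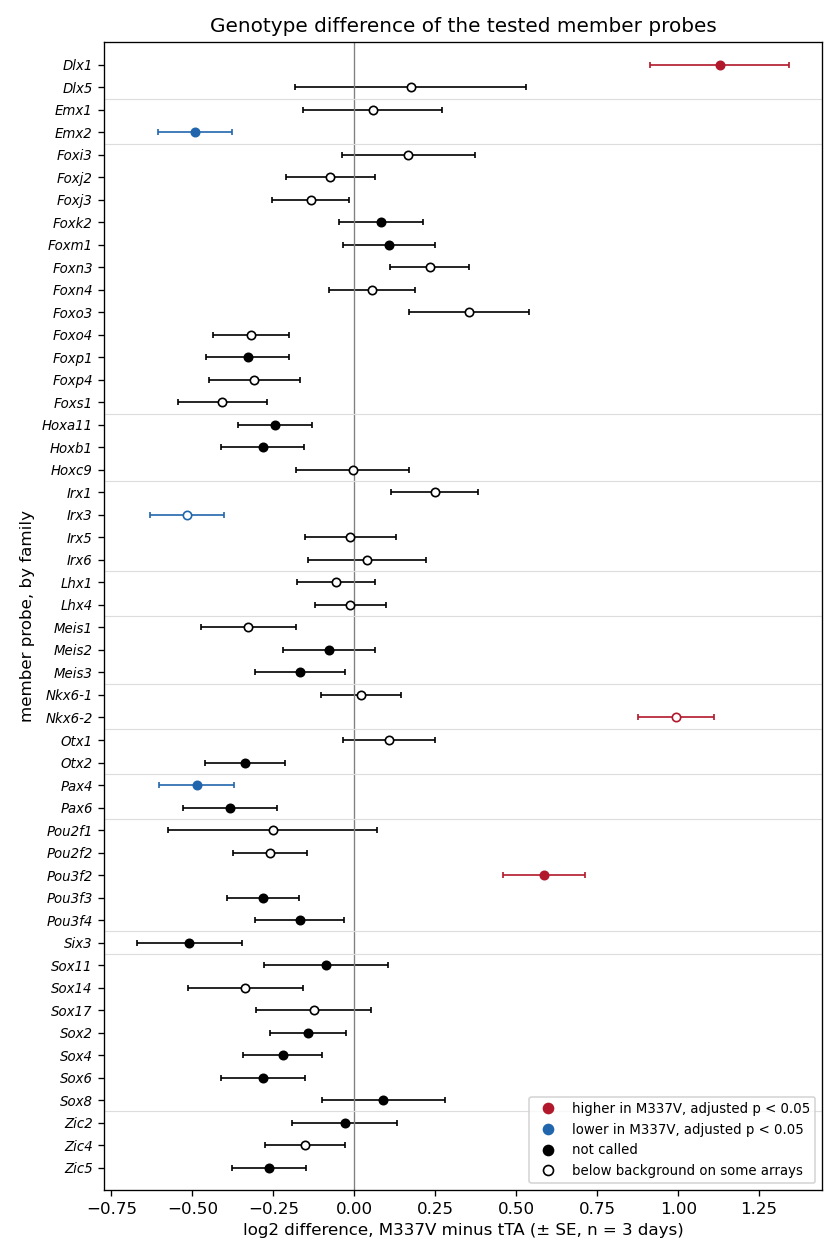
Log2 difference M337V minus tTA (horizontal axis) of the 50 tested members, with its SE over 3 days; filled points were detected on all 6 arrays. Dlx1 (1.13) and Nkx6-2 (0.99) lie farthest to the right and Irx3 (-0.52) and Six3 (-0.51) farthest to the left.

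The promoter windows of 5 of the 6 called genes, all but Emx2, are shown because these genes were called in the fit above. The windows run from 250 bases before to 50 bases after the annotated start (RefSeq, build GRCr8, given 5′ to 3′ on the gene's strand). Every CpG is in capitals. Nkx6-2 lies at chr1:203813073-203813372 on the minus strand, Dlx1 at chr3:76763614-76763913 on the plus strand and Pou3f2 at chr5:40880490-40880789 on the minus strand. Irx3 lies at chr19:31384868-31385167 on the plus strand and Pax4 at chr4:58028809-58029108 on the minus strand.
Nkx6-2: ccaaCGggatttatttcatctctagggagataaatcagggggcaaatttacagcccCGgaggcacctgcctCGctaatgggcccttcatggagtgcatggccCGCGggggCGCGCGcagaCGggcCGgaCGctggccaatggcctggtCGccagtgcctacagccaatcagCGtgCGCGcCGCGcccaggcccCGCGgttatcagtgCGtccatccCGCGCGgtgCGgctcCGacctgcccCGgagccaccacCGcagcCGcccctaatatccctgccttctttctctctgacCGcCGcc
Dlx1: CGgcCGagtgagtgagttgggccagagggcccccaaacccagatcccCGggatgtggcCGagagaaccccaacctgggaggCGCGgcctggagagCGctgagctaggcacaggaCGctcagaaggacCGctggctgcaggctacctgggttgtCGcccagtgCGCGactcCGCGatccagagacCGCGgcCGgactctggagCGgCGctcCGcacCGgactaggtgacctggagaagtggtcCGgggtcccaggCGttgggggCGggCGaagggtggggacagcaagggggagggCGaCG
Pou3f2: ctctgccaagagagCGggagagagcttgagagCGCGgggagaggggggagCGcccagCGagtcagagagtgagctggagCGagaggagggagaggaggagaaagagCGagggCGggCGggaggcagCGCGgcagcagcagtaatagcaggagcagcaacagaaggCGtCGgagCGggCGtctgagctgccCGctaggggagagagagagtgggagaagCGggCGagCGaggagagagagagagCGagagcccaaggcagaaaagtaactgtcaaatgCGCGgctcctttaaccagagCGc
Irx3: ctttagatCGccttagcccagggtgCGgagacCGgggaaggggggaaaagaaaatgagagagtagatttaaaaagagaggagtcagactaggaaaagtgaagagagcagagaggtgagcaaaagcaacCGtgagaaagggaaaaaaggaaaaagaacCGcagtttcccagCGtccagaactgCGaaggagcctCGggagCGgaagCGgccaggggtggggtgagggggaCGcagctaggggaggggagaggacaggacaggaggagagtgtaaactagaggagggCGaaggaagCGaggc
Pax4: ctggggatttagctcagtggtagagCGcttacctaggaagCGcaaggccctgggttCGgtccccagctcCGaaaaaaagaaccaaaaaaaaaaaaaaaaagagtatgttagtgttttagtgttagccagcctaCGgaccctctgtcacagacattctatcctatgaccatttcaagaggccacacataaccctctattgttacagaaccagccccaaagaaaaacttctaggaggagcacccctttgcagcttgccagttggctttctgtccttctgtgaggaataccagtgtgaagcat

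The windows of the 3 genes that rose hold 30 CpG (Nkx6-2), 27 (Dlx1) and 23 (Pou3f2) in 300 bases, more than 86.4%, 81.5% and 73.9% of the 21842 windows of protein-coding genes. Those of Irx3 and Pax4, 2 of the 3 called lower in that fit, hold 13 and 5, more than 53.4% and 30.7%. Among the detected members, 35 of 50 genes matched the table and their 37 windows held a median of 20 CpG, against 18.5 for the 36 windows of members detected on no array and 11 for all protein-coding windows. The medians of detected and undetected members lay close together. Core motifs were searched on both strands and may overlap other motifs. The homeodomain core TAATTA was found in 1 of the 37 windows (Sox6) and in 4.74% of all windows. The forkhead core TGTTTAC was in 1 (Foxp1; 3.37% of all), a SOX core, AACAAT, in 1 (Pax4; 9.98%) and the POU core ATGCAAA in 3 (Pou2f1, Sox2 and Meis1; 4.46%). These counts describe the letters of these windows only.

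Nkx6-2 (probe ILMN_1369820), a homeobox repressor of ventral neural progenitors that is also made in oligodendrocytes, gave the clearest difference. It read 5.60, 5.39 and 5.66 (log2 of the normalized signal) in M337V on days 3, 4 and 6, against 4.55, 4.55 and 4.57 in tTA. All 3 M337V values were above background and no tTA value was, so only a bound can be given: M337V exceeded tTA at least 1.47-fold (the fitted difference was 0.99 ± 0.12 on the log2 scale, SE, n = 3 days, adjusted p = 0.00516 by limma). The fitted value was 0.31 with upper quartile scaling and with the deposited values, 0.34 without background correction and 0.49 with an offset of 50, so the bound holds only on the background-corrected scale used here. In 16 alternatives the adjusted p lay between 8.45e-06 and 0.0296. It was the 1 member detected on all arrays of one genotype and none of the other, a pattern of 1.45% of all probes tested in that direction and 0.374% in the opposite one. Nkx6-1, its close relative in the ventral neural tube, was detected on the tTA array of day 6 only (4.99, where the other 5 arrays read 4.65 to 5.02). The oligodendrocyte regulator Sox10, looked up after its values were known, moved in the same arrays. It read 7.22, 7.87 and 9.29 in M337V, against 4.67, 5.06 and 4.87 in tTA, where 1 array detected it, and was at least 8.64-fold higher on that scale (fitted 3.26 ± 0.35, adjusted p = 0.00389). The fitted value was 1.75 with upper quartile scaling and the deposited values and 1.66 without background correction. Whether the Nkx6-2 signal comes from oligodendrocyte lineage cells was not tested.

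Dlx1 (ILMN_1366467), a homeobox gene of the ventral forebrain needed for the GABA-making interneurons that arise there, showed the largest fitted difference of the members. It read 7.19, 7.42 and 7.85 on the M337V arrays, against 6.55, 6.42 and 6.11 on the tTA arrays of the same days. The groups did not overlap and the gap was widest on day 6. The fitted rise of Dlx1 was 2.19-fold (1.13 ± 0.22 on the log2 scale, adjusted p = 0.0254), a call lost without day 4 (1.19, adjusted p = 0.076). The difference was 0.68 with upper quartile scaling and the deposited values and 0.63 without background correction, and was called in each. Gad1, a GABA-synthesizing enzyme, named after its values were seen, was higher too (2.02 ± 0.16, adjusted p = 0.00148; 1.19 without background correction). It is 1 of the 6 neuron genes called among 11 tested. Gad2, of the same neuron list, and the interneuron gene Lhx6 were detected on no array. Dlx5, the other Dlx gene detected, gave no such picture. It read 4.61, 5.36 and 5.75 in M337V, against 5.51, 5.08 and 4.61 in tTA, with both readings of 4.61 below background, so that Dlx5 was detected in tTA alone on day 3 and in M337V alone on day 6 (fitted 0.17 ± 0.36 over the days, adjusted p = 0.798).

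Pou3f2 (ILMN_1370881), also called Brn2, is a POU factor of neural progenitors and upper-layer neurons. It read 9.37, 9.45 and 9.61 on the M337V arrays, against 8.86, 9.01 and 8.80 on the tTA arrays, with no overlap. The fitted rise was 1.5-fold (0.59 ± 0.13 on the log2 scale, adjusted p = 0.0365); without day 3, 4 or 6 the adjusted p was 0.0882, 0.108 and 0.143. Its paralog Pou3f3 (Brn1) lay the other way, at 10.36, 10.56 and 10.52 in M337V and 10.60, 10.80 and 10.89 in tTA. Those groups did not overlap either, but the difference of -0.28 ± 0.11 did not pass (adjusted p = 0.176; 0.0108 to 0.53 over the alternatives, 4 of which called it). Pou3f4 (Brn4) averaged 5.39 ± 0.14 in M337V and 5.56 ± 0.23 in tTA (SD, n = 3), with overlap. The ubiquitous octamer factor Pou2f1 was uneven, at 4.83, 5.0 and 5.34 in M337V and 5.80, 5.56 and 4.57 in tTA, where the first M337V and the last tTA reading were below background.

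**Figure D4:**
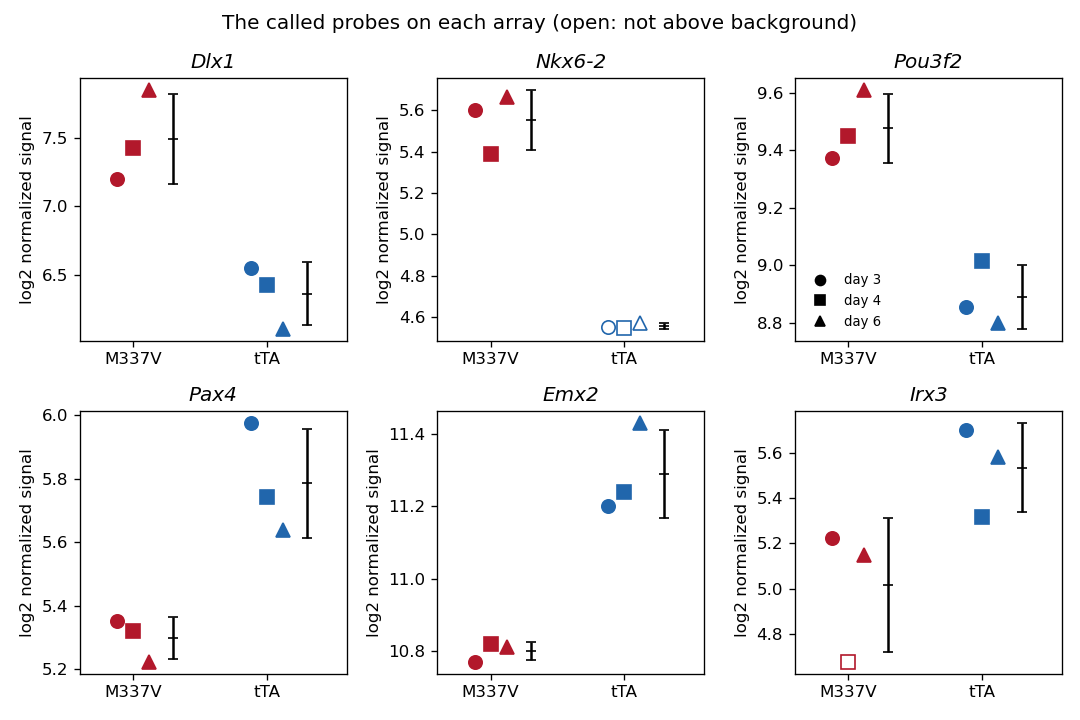
Log2 normalized signal of the 6 called probes on each array, M337V left and tTA right, with the mean and SD (n = 3) beside the points; each panel has its own vertical range. No M337V value overlaps a tTA value in any panel, and the open symbols of Nkx6-2 (all 3 tTA arrays) and Irx3 (1 M337V array) were not above background.

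Emx2 (ILMN_1351453), a homeobox gene of the dorsal telencephalon, read 10.77, 10.82 and 10.81 in M337V, against 11.20, 11.24 and 11.43 in tTA. The M337V values lay within 0.05 of each other and all below tTA. The fitted fall was 1.41-fold (-0.49 ± 0.12 on the log2 scale, adjusted p = 0.0464), and its adjusted p was 0.101, 0.171 and 0.176 without day 3, 4 or 6 and 0.0843 with median scaling. Emx1, also of the dorsal telencephalon, was at the edge of detection, on 2 M337V arrays and 1 tTA array.

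Six3, which marks the front of the forebrain and the eye field, read 5.58, 5.67 and 6.04 in M337V and 6.24, 6.44 and 6.14 in tTA. No value overlapped, yet the difference of -0.51 ± 0.16 did not pass (adjusted p = 0.107; -0.20 without background correction). Pax6, the paired-box gene of cortical progenitors, eye and astrocytes, read 8.95, 9.23 and 9.42 in M337V and 9.66, 9.48 and 9.60 in tTA. Its difference of -0.38 ± 0.14 (adjusted p = 0.158) narrowed to -0.18 on day 6, and 5 of 17 alternatives called it lower, so it lay near the threshold. Otx2, a gene of forebrain and midbrain, read 6.54, 6.29 and 5.88 in M337V and 6.96, 6.43 and 6.33 in tTA (-0.34 ± 0.12, adjusted p = 0.146). Both genotypes were lower on day 6 than on day 3. Otx1 was detected on a single M337V array.

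Pax4 (ILMN_2039497), a gene known from the endocrine pancreas, read 5.35, 5.32 and 5.22 in M337V, against 5.97, 5.74 and 5.64 in tTA, and was 1.4-fold lower (-0.49 ± 0.12, adjusted p = 0.0483). Irx3 (ILMN_1359218), an Iroquois factor of the caudal forebrain, hindbrain and spinal cord, read 5.22, 4.68 and 5.15 in M337V, against 5.70, 5.32 and 5.58 in tTA. The M337V array of day 4 did not detect Irx3. With that array at its lowest detected signal, Irx3 was at least 1.36-fold lower in M337V (fitted -0.52 ± 0.11, adjusted p = 0.0397 by limma). This bound holds only on the background-corrected scale used here. Without background correction the differences were -0.16 for both, and with upper quartile scaling -0.25 for Irx3 and -0.23 for Pax4. Pax4 lost its call in 11 of 17 alternatives and Irx3 in 12 of 16. Without the replicate block (the day) the adjusted p was 0.138 for Irx3 and 0.0662 for Pax4. Irx5, which neighbours Irx3 in the genome, overlapped between the groups (4.97 to 5.35 in M337V and 4.73 to 5.35 in tTA), and Irx6 was detected on 1 array of each genotype.

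Of the Hox family 3 of 21 probes were detected and none was called. Hoxa11, known for its part in limb, kidney and uterus, read 6.87, 6.77 and 6.37 in M337V and 7.0, 7.02 and 6.72 in tTA. Hoxb1, which specifies a segment of the hindbrain, read 5.24, 5.51 and 5.37 in M337V and 5.29, 5.93 and 5.76 in tTA (difference -0.28 ± 0.13, adjusted p = 0.224). Hoxc9, a gene of the thoracic cord, averaged 5.21 in both genotypes to within 0.01 (5.21 ± 0.16 and 5.22 ± 0.25, SD, n = 3), with 1 tTA array below background. Values of all 3 overlapped between the genotypes.

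The Meis genes encode cofactors that bind DNA beside Hox and Pbx proteins. Meis2, also a marker of the lateral ganglionic eminence, averaged 10.10 ± 0.14 in M337V and 10.18 ± 0.17 in tTA (SD, n = 3), and Meis3 7.08 ± 0.15 and 7.25 ± 0.11. Meis1 had the smallest p of the 3 and did not pass (-0.33 ± 0.15, adjusted p = 0.22), with 1 M337V array below background. Of their Pbx, Tgif and Cdx partners 4 were tested and 0 were called, with 0 at an unadjusted p under 0.05; Tgif1 differed by -0.31 ± 0.14 and Pbx4 by 0.30 ± 0.13. Eya2 and Eya3, partners of Six-family proteins, were each above background on 1 M337V array only. Among partners of LIM-homeodomain proteins 0 of 4 were called, and 2 had an unadjusted p under 0.05. Lmo1 was above background on all 3 M337V arrays and no tTA array. On the background-corrected scale it was at least 1.27-fold higher, but it missed the threshold (fitted 0.69 ± 0.17, adjusted p = 0.0549 by limma). The fitted value was 0.18 with upper quartile scaling, where that bound does not hold. The LIM-homeodomain members themselves were dim. Lhx4 was detected on 2 arrays of each genotype, and Lhx1 on 1 tTA array (-0.06 ± 0.12, adjusted p = 0.807).

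SOX genes were present in number and none was called. Sox2, which keeps neural stem cells and is made in astrocytes, read 8.84, 8.80 and 8.96 in M337V and 8.88, 9.09 and 9.06 in tTA, with overlap. Sox6, a gene of glial progenitors, read 7.54, 7.82 and 7.99 in M337V, all below the 8.05, 8.07 and 8.08 of tTA, without passing (-0.28 ± 0.13, adjusted p = 0.227). Sox8, a relative of Sox9 and Sox10 in glia, read 8.04, 8.10 and 8.92 in M337V and 8.25, 8.25 and 8.29 in tTA, so that the M337V array of day 6 alone stood above tTA. Sox4 averaged 7.27 ± 0.07 in M337V and 7.49 ± 0.23 in tTA (SD, n = 3), and Sox11, like Sox4 a gene of young neurons, 6.80 ± 0.31 and 6.88 ± 0.17. Sox14 was detected on 1 M337V and 3 tTA arrays, and Sox17, an endothelial and endodermal gene, on 1 tTA array.

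The ZIC genes mark dorsal neural tube and also meninges. Zic2 averaged 7.01 ± 0.26 in M337V and 7.04 ± 0.12 in tTA (SD, n = 3). Zic5 read 6.99, 6.77 and 6.89 in M337V, below the 7.14, 7.05 and 7.25 of tTA, and did not pass (-0.26 ± 0.11, adjusted p = 0.209).

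Of 12 forkhead probes tested 0 were called, and Foxo4, Foxp1 and Foxs1 had an unadjusted p under 0.05. Foxm1, which drives genes of mitosis, averaged 5.58 ± 0.18 in M337V and 5.47 ± 0.12 in tTA (SD, n = 3), and Foxk2, a broadly made repressor, 5.60 ± 0.17 and 5.52 ± 0.15. Foxp1, of striatal and cortical neurons, read 6.70, 6.68 and 6.63 in M337V, under the 7.26, 6.84 and 6.90 of tTA. Foxs1, a gene of pericytes and neural crest, was detected on 1 M337V array and all 3 tTA arrays, at 5.06, 5.22 and 4.58 in M337V and 5.41, 5.40 and 5.26 in tTA (-0.41 ± 0.14, adjusted p = 0.123). In the same arrays 2 of 7 pericyte and smooth muscle genes were lower, Cnn1 and Myl9, and 5 were not called. Among those 5, Tagln (-0.43), Mcam (-0.41) and Des (-0.19) lay lower, Tagln and Mcam with an unadjusted p under 0.05. Kcnj8 (-0.006) and Abcc9 (0.13) were each above background on 1 M337V array and no tTA array. The part of such cells in the Foxs1 difference was not tested. Foxo3, a factor of stress and insulin signalling, was detected on 3 M337V arrays and 1 tTA array, with overlapping values.

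Over the set, differences were about as large as across the array, with a median size of 0.23 (log2) for members and 0.19 for all probes. Their signed median log2 difference was -0.13, against -0.04 over all probes tested, and 34 of 50 differences were below 0 (68.0%, against 56.3% of all probes). The number below 0 ran from 29 with cyclic loess to 42 with the upper quartile scaling, and the median from -0.12 to -0.05 over the other scalings and background settings. The scaling moved all probes too. With upper quartile scaling the median was -0.12 for members and -0.08 for all probes, and with cyclic loess -0.08 and 0.01. Groups did not overlap for 4 members that lay higher in M337V (8.0%, against a background of 12.3%) and for 12 that lay lower (24.0%, against 16.3%). An unadjusted p under 0.05 was reached by 13 members, or 26.0%, against 26.5% of all probes. The sign of the difference was the same on all 3 days for 48.0% of members and 49.3% of all probes. Because the filter lets a probe in through 1 array, these shares describe the probes that passed and not all 113 members.

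Over the 50 members, Pearson's r between arrays on log2 levels was 0.958 to 0.978 across genotypes and 0.979 to 0.988 within a genotype. This is a description only, since a probe keeps its own brightness on every array. Over all 13086 probes the ranges were 0.949 to 0.977 across and 0.982 to 0.991 within. The pooled SD within a genotype had a median of 0.19 (log2) for members and 0.20 for all probes.

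**Figure D5:**
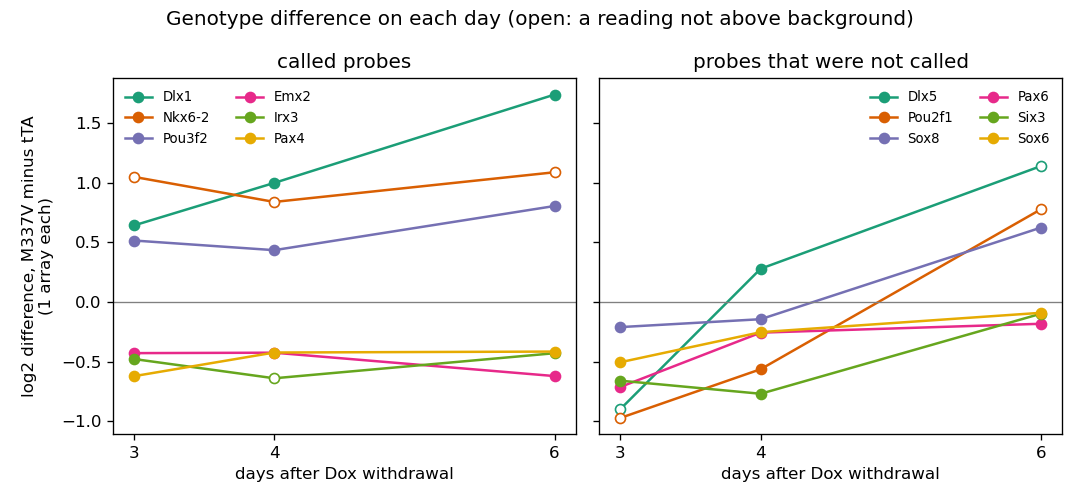
Log2 difference M337V minus tTA on days 3, 4 and 6 after Dox withdrawal (1 array each), for the 6 called probes (left) and for 6 that were not called (right). Open points, among them all 3 of Nkx6-2 and the day 3 and day 6 points of Dlx5 and Pou2f1, rest on a reading not above background and their height is not measured; Dlx1, detected throughout, lies at 0.64, 1.0 and 1.74.

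No member was called for time after withdrawal. For day 6 minus day 3 over both genotypes limma called 0 of 50 members, against 0.81% of all probes. Otx2 (-0.65 ± 0.15, adjusted p = 0.115) and Hoxa11 (-0.39 ± 0.14, adjusted p = 0.236) were the 2 of 50 members with an unadjusted p under 0.05. Over all 13086 probes, 2321 reached it. Otx2 passed in 2 alternatives, without background correction (adjusted p = 0.0497) and with the fit limited to probes that all 6 arrays detect (0.0408). The median size of the change was 0.15 for members and 0.20 for all probes.

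Whether the genotype difference itself changed with day was fitted as a slope with 1 residual degree of freedom, which leaves little power. Limma called 0 of 50 members and 0.0% of all probes. An unadjusted p under 0.05 was reached by 6 of the 50 members and by 1093 of all 13086 probes. Dlx1, detected on all 6 arrays, had a slope of 0.37 per day (adjusted p = 0.542) and passed with median scaling. The fitted slopes of Dlx5 and Pou2f1 (adjusted p = 0.477 each) rest on day 3 and day 6 readings below background, so their size is not measured; both passed with median scaling and with a variance trend. Sox8 passed with a variance trend, upper quartile scaling and the deposited values. On single days, where no test can be made, Dlx1 on day 6 was the 1 member at least 2-fold higher in M337V once readings below background were set at the array's lowest detected signal, a setting chosen after seeing the data. That is 0 of 36, 0 of 42 and 1 of 44 members detected on either array of days 3, 4 and 6, against 3.22%, 3.39% and 4.32% of all such probes. With the readings taken as they are, Nkx6-2 on day 3 and Nkx6-2 and Dlx5 on day 6 also differ by 2-fold, each against a tTA reading below background, which gives 1, 0 and 3 members against 3.9%, 3.86% and 4.81% of probes. No member was 2-fold lower on any day, against 2.36%, 1.58% and 1.86% of probes with the readings as they are and 1.85%, 1.41% and 1.76% with that setting.

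Neural patterning factors outside these families, from a list of other homeobox, bHLH and nuclear receptor genes, had 2 of 17 tested genes higher and 0 lower (median -0.19). The higher ones were Dbx2, a homeobox gene of the middle of the neural tube, and the oligodendrocyte lineage factor Olig1 (1.58 ± 0.14, adjusted p = 0.0021 by limma). Dbx2 read 6.05, 6.86 and 7.43 in M337V, against 4.57, 4.77 and 5.15 in tTA, where 1 array detected it. It was at least 3.3-fold higher, a bound that holds only on the background-corrected scale used here. The fitted value of 1.95 was 0.84 with upper quartile scaling and 0.79 without background correction. Id1, an inhibitor of bHLH factors that BMP induces, was at -0.66 ± 0.17 and did not pass (adjusted p = 0.0659), though 10 of 17 alternatives called it.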

How the data were processed

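Per the labels' protocols, total RNA was amplified, labelled with biotin and put on Illumina beadchips. GenomeStudio is the tool named by the authors, per the submitters' processing notes, with no version. Per the file headers, the deposited unprocessed table gives a mean bead signal intensity per probe and array, linear and not normalized, and a detection p-value from control beads. A deposited table of processed log2 values was also given, whose differences between arrays equal log2 signal minus the upper quartile within 0.00238. The centring per probe is unknown (column medians -0.15 to 0.07).

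Values were computed with limma 3.58.1 in R 4.3.3: neqc (normexp from the detection p-values, offset 16, quantile normalization, log2). The offset shrinks differences of dim probes. The number of arrays limits the precision. The 13086 probes detected on at least 1 array were fitted with lmFit and eBayes, with day as a factor and genotype (2 residual degrees of freedom, prior 4.06; 1 and 4.29 for slopes). Each probe is its own feature. Deviations of same-day arrays from their genotype means correlated at 0.36, 0.07 and 0.35 for days 3, 4 and 6; the day, given in the labels, is the replicate block. Bounds ("at least") set undetected values at the array's lowest detected signal, 4.90 to 5.06, and hold only on this background-corrected scale. Named genes are the called members, the smallest p in other families, and up to 3 genes per partner list. Pax6, Pou3f3, Sox8, Dlx5, Pou2f1, Sox10 and Gad1 were added after their values were seen. The members and the 16 lists were chosen with earlier results of these data known. Of 13793 probes with 1 gene symbol, 13752 matched the current rat gene table, and no symbol changed. In lists a gene is its tested probe of highest mean level. The fits were tested on simulated data.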

Additional observations from a re-analysis of the deposited data

How the results depend on the processing

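Dim probes and 3 arrays a genotype limit these results: only 23 of the 50 tested members were detected on all 6 arrays, and near background the offset and the background correction set the size of a difference. Without day 3, 4 or 6 the members higher ranged from 1 to 2 and those lower from 0 to 0, with 3 and 3 in all days; 0 were lower with median scaling, 1 with cyclic loess and 1 with no replicate block, which changed no call of a rise. Members changed from day 3 to day 6 numbered 1 without background correction and 1 among probes detected on all 6 arrays. Slopes passing numbered 1 with upper quartile scaling, 1 with the deposited values, 3 with median scaling and 3 with a variance trend. Members 2-fold higher on day 3 numbered 0 under all 6 alternatives, the floor for undetected readings included. On day 4 they numbered 1 with median scaling and 1 with cyclic loess. On day 6 they numbered 0 without background correction, 1 with that floor, 1 with the deposited values and 1 with upper quartile scaling. With median scaling the day 6 number was 4, Pou3f2 among them, and with cyclic loess it was 3. With a detection p under 0.01, 23 members were detected on the tTA array of day 6. Differences that changed sign were all of uncalled genes: without day 6, Lhx1 (0.028), Sox8 (-0.18) and Dlx5 (-0.31); without day 3, Pou2f1 (0.11), Cdx2 (0.068) and Eya3 (-0.076); and Eya3 with upper quartile scaling (-0.043) and the deposited values (-0.043). Unless stated above, the cause was not tested. Of all called probes 55.1% were higher, against 41.9% with upper quartile scaling, 41.8% with the deposited values, 67.6% with median scaling and 64.2% with cyclic loess.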

Other observations

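Of 13 mesenchymal transcription factors tested outside these families, 4 were lower in M337V, 0 higher and 9 not called, with a median log2 difference of -0.26. Snai1, a repressor of epithelial genes, read 7.09, 6.61 and 5.97 on the M337V arrays of days 3, 4 and 6, against 8.80, 8.19 and 7.81 on the tTA arrays (-1.71 ± 0.12, SE, adjusted p = 0.00101 by limma; -1.08 without background correction). Prrx1, a homeobox gene of mesenchyme, fell by 1.22 ± 0.12 on the log2 scale (adjusted p = 0.00247) and Runx1 fell by 0.90 ± 0.16 (adjusted p = 0.0201; 0.07 and 0.0943 without days 3 and 4; the difference was -0.54 without background correction). In the same arrays 5 of 9 fibroblast and meningeal genes were lower and 2 higher, and their part in these falls was not tested.

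Of 13 genes of patterning signals tested, 3 were lower and 0 higher (median -0.43). The ligand gene Bmp2 read 5.45, 5.53 and 5.68 in M337V, against 5.96, 6.23 and 6.90 in tTA (-0.81 ± 0.16, adjusted p = 0.0289). The Wnt receptor gene Fzd1 (-0.76 ± 0.12, adjusted p = 0.0159) and the Wnt target Axin2 (-0.58 ± 0.13, adjusted p = 0.0417) were lower as well. Without background correction Bmp2 was at -0.33 and Axin2 at -0.26. All 3 lost their calls in some alternatives, 3 of 17 for Bmp2, 2 for Fzd1 and 5 for Axin2. Polycomb and trithorax genes, which set the chromatin of Hox and other patterning loci, gave 0 calls among 14 tested by limma, with 2 at an unadjusted p under 0.05 (median -0.06). Pcgf2 (-0.35 ± 0.11) and Ezh1 (-0.39 ± 0.14) had adjusted p of 0.102 and 0.137.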
